A study of Arabidopsis thaliana with 14 samples.

Results

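Extensins are structural proteins of the plant primary cell wall. They are rich in serine and hydroxyproline repeats that carry short arabinose chains, and tyrosines in the repeats can be cross-linked by peroxidases into a network. In roots many extensin genes are known from root hairs, long outgrowths of epidermal cells whose wall is built quickly at the tip. The 4 loci described here were chosen by name with earlier values of these arrays known. They are AT4G08410, AT1G23720 and AT1G26250, which encode proline-rich extensin-like proteins, and AT2G47540, which encodes a protein of the pollen Ole e 1 allergen and extensin family. Their probe sets were those paired with exactly 1 gene, which gave 4 genes with 1 probe set each, of 13355 genes with such a probe set on the array. All 4 passed the filter on low signal that kept 13648 of 22746 probe sets.

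RNA was measured on Affymetrix ATH1 arrays in whole roots of Columbia seedlings of Arabidopsis thaliana, with 2 arrays in each of 7 groups, 14 arrays in all. After 5 d on standard medium, seedlings went onto a medium without iron sulfate that held 0.3 mM Ferrozine, a chelator of ferrous iron, for 3, 6, 12, 24, 48 or 72 h, and the control group went onto fresh standard medium for 3 h. Each array came from a separate pool of about 320 roots. The control therefore shares its time on fresh medium with the 3 h group alone, and the labels place every harvest in 1 window on the sixth day, which cannot hold for 48 and 72 h after 5 d of growth. A value below is the array's signal on a linear scale as deposited, where the trimmed mean of each array was 250.02 to 250.03. Signals of different probe sets are not set against each other.

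The 48 and 72 h arrays form a set of their own. Each of 18 probe sets for spike-in controls read lower on every one of these 4 arrays than on any of the other 10, with a geometric mean signal of 378 to 440 against 2172 to 3232. The brightest probe set of an array read 11714 to 15134 in this later set, against 27452 to 43173 in the earlier one. Ratios of the 3′ to the 5′ probe set of control genes went both ways. Averaged over the 48 and 72 h arrays they were 1.62 and 2.58 for the ubiquitin controls, against 2.16 and 4.52 over the other 10. For the GAPDH controls they were 1.03 and 0.477 over the 48 and 72 h arrays, against 0.873 and 0.699 over the other 10. No group lies in both sets, so at 48 and 72 h the time without iron and the array set cannot be told apart.

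AT4G08410 was lower than on standard medium at all 6 times without iron, and lowest at 72 h. Its signals were 718 and 674 on standard medium, 274 and 389 at 3 h, 253 and 224 at 6 h, 273 and 205 at 12 h, 227 and 215 at 24 h, 88.6 and 142 at 48 h, and 48.4 and 79.9 at 72 h. Every array without iron lay below both standard arrays, as for 2.67% of tested probe sets, and the groups stood on 5 separate levels. The 3 h arrays lay under the standard arrays and above the rest, at the closest by 274 against 273 at 12 h. The 6, 12 and 24 h arrays formed a plateau whose neighbouring groups overlapped. The 48 h arrays lay below the plateau, a step that crosses the 2 array sets, and above the 72 h arrays. Both 72 h arrays were below both 48 h arrays for 19% of tested probe sets. Shares for the steps between 3 h, the plateau and 48 h were not counted. The signal of 1 of the 72 h arrays was under 49.6, the level of the filter on mean signal.

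The log2 fold change of AT4G08410 against standard medium, on the log2(signal + 16) scale, was −1.05 at 3 h, −1.49 at 6 h, −1.495 at 12 h, −1.59 at 24 h, −2.47 at 48 h and −3.18 at 72 h, each with a standard error (SE) of 0.24 (n = 2 against 2). In signal + 16, AT4G08410 was thus 2.08-fold lower at 3 h, 3.01-fold lower at 24 h and 9.05-fold lower at 72 h. The added 16 makes these folds smaller than those of the signal itself. The mean signal was 696 for the standard arrays and 64.2 for the 72 h arrays. The log2 fold changes at 3 and 24 h lie within the earlier set of arrays. There the difference of 24 h against 3 h was −0.53 ± 0.24 (SE), 1.45-fold lower in signal + 16. Within the later set, the difference of 72 h against 48 h was −0.71 ± 0.24 (SE). Over all tested probe sets the 5th percentile was −0.57 at 24 h and −1.40 at 72 h, so AT4G08410 lay outside the central range at both times. All of these values took part in the choice of the gene and are given without a test.

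**Figure D1:**
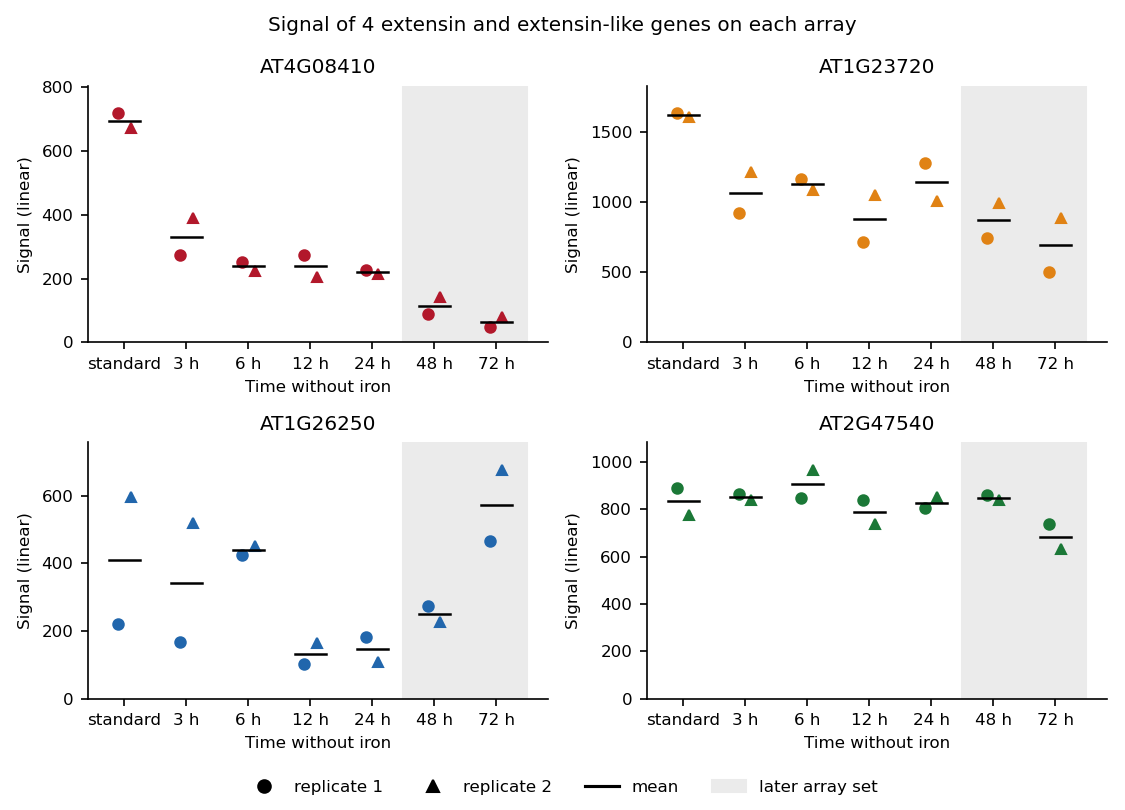
Signal (linear scale) of AT4G08410, AT1G23720, AT1G26250 and AT2G47540 on each of the 14 arrays, by time without iron, with circles for replicate 1, triangles for replicate 2, a bar for the mean of a group and a grey field over the later array set. AT4G08410 steps down to 48.4 and 79.9 at 72 h, AT1G26250 is lowest at 12 and 24 h, and AT2G47540 stays between 631 and 968.

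A second probe set for this locus was left out by the rule because it is paired with both AT4G08410 and its close relative AT4G08400. It was dim on every array, with signals of 4.13 to 74.1. Its mean was 39.9 ± 12.3 at 3 h, 14.3 ± 14.3 at 12 h, 20.8 ± 16.04 at 24 h and 9.81 ± 1.85 at 72 h, against 51.8 ± 31.6 on standard medium (SD, n = 2 each). Its 3, 6 and 24 h arrays overlapped the standard arrays, unlike those of the 1-gene probe set of AT4G08410. The 1-gene probe sets of AT4G08410 and AT1G23720 also carry the array design's suffix for probes that may match other sequences. This suffix marked 0.0953% of all tested probe sets, 13 of 13648, but 4 of 9 tested extensin probe sets, so the signal of a near-identical relative may be part of these values.

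AT1G23720, which encodes another protein with extensin repeats, was lower at every time without iron too, by less than AT4G08410. The standard arrays were close together at 1632 and 1609.5. Signals without iron were 919.9 and 1211 at 3 h, 1168 and 1084 at 6 h, 712 and 1050.1 at 12 h, 1278 and 1006 at 24 h, 743 and 995 at 48 h, and 504 and 886 at 72 h. All 12 arrays without iron lay under both standard arrays. Ranked by mean, from 24 h at the top to 72 h at the bottom, every neighbouring pair of the 6 times overlapped. Groups farther apart in that order did not always overlap. Both 72 h arrays lay under both arrays of 3, 6 and 24 h. Both 48 h arrays lay under both arrays of 6 and 24 h. Each of these separations sets the later array set against the earlier one, so time without iron and array set cannot be told apart. The shares of tested probe sets with the same separations were not counted.

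For AT1G23720 the log2 fold change against standard medium was −0.61 at 3 h, −0.52 at 6 h, −0.89 at 12 h, −0.51 at 24 h, −0.90 at 48 h and −1.26 at 72 h, each ± 0.24 (SE, n = 2 against 2). In signal + 16 these range from 1.42-fold lower at 24 h to 2.39-fold lower at 72 h. Over all tested probe sets the 5th percentile was −1.27 at 48 h and −1.40 at 72 h, so AT1G23720 lay within the central range at both times. The value at 24 h against 3 h was 0.10 ± 0.24, a difference within its error. AT4G08410 and AT1G23720 were the members with both arrays below both standard arrays at every time, a pattern that 2.67% of tested probe sets showed, 364 of 13648. They are also the members whose probe sets carry the suffix for probes that may match other sequences. Whether the probe sets share signal was not tested. All 6 comparisons share the same 2 standard arrays.

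AT1G26250, a proline-rich extensin-like gene that stands next to the extensin gene AT1G26240 in the RefSeq gene order, followed another course, with a trough at 12 and 24 h. The standard arrays read 221 and 596. Arrays without iron read 167 and 519 at 3 h, 425 and 452 at 6 h, 103 and 163 at 12 h, 183 and 109 at 24 h, 273 and 226 at 48 h, and 466 and 677 at 72 h. The 12 and 24 h arrays were under both standard arrays and under both 6 h arrays, and the 72 h arrays were above both 48 h arrays. Both arrays were below both standard arrays for 17.3% of tested probe sets at 12 h and for 20.5% at 24 h. The shares with both arrays under both 6 h arrays, or with 72 h above 48 h, were not counted. In the other direction, both 72 h arrays were below both 48 h arrays for 19% of tested probe sets. The standard, 3 h, 6 h and 48 h groups overlapped along the ranking by mean.

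The replicates of AT1G26250 were far apart in 2 groups, by a log2 difference of 1.37 on standard medium and 1.55 at 3 h, and by 0.67 or less in the other 5. Its log2 fold change against standard medium was −0.28 at 3 h, 0.25 at 6 h, −1.38 at 12 h, −1.27 at 24 h, −0.53 at 48 h and 0.60 at 72 h, each ± 0.41 (SE, n = 2 against 2). Steps between neighbouring times do not use the control arrays. They were −1.64 ± 0.41 for 12 h against 6 h, 0.11 ± 0.41 for 24 h against 12 h, 0.75 ± 0.41 for 48 h against 24 h, which crosses the 2 array sets, and 1.13 ± 0.41 for 72 h against 48 h. In signal + 16, the 12 h group was thus 3.11-fold lower than the 6 h group. The 72 h group was 2.19-fold higher than the 48 h group.

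Without the higher standard array (replicate 2), the value of AT1G26250 was −0.70 at 12 h, −0.59 at 24 h and 1.29 at 72 h. Without the lower one (replicate 1) it was −2.07 at 12 h, −1.96 at 24 h and −0.08 at 72 h. The sign at 12 and 24 h held in both cases, and the sign at 72 h rested on which control array was used. The sign also turned at 3 and 48 h without standard replicate 2, at 6 h without standard replicate 1, and at 3 h without 3 h replicate 1.

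AT2G47540 kept to a narrow range of signal through 48 h. Proteins with an Ole e 1 domain were named after an olive pollen allergen, and several of those with a proline-rich stretch are wall proteins of roots. Its standard arrays read 891 and 777. Signals without iron were 866 and 839 at 3 h, 846 and 968 at 6 h, 839 and 738 at 12 h, 807 and 850.4 at 24 h, 859 and 842 at 48 h, and 737 and 631 at 72 h. Apart from 72 h, each group overlapped the standard arrays.

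The log2 fold change of AT2G47540 lay between −0.08 at 12 h and 0.12 at 6 h through 48 h, each ± 0.16 (SE, n = 2 against 2), and was −0.28 ± 0.16 at 72 h. At 72 h both arrays were below both standard arrays, which was also so for 31.8% of all tested probe sets, and below both 48 h arrays, as 19% of tested probe sets were. Within groups its replicates differed by at most 0.22 on the log2 scale. The highest of its 14 signals was 968 and the lowest 631.

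**Figure D2:**
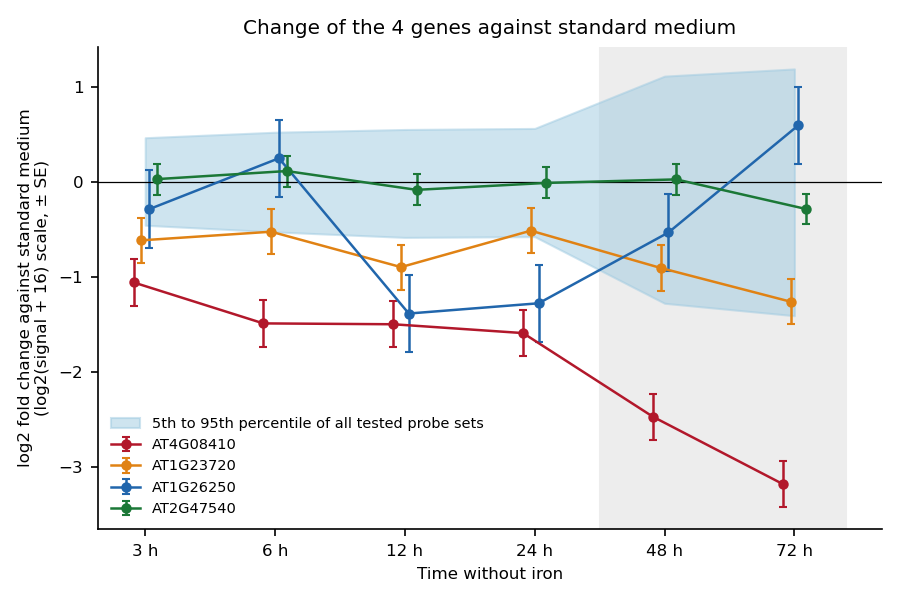
Log2 fold change against standard medium on the log2(signal + 16) scale (vertical axis, ± SE, n = 2 against 2) at 3 to 72 h without iron for the 4 genes, with a blue band from the 5th to the 95th percentile of all 13648 tested probe sets and a grey field over the later array set. AT4G08410 lies below the band at each time, reaching −3.18, and AT1G23720 lies below it at 3 and 12 h alone. AT1G26250 leaves it at 12 and 24 h, and AT2G47540 stays inside it.

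A probe set was called where limma's p, adjusted by Benjamini-Hochberg over all 13648 tested probe sets, was under 0.05. Because the members were chosen with these values known, their calls are counted here only as a description. At 3 h none of the 4 was called by limma, with 2 at an unadjusted p under 0.05. At adjusted p, 0.022% of tested probe sets were called at 3 h in either direction and 0% lower. All shares of tested probe sets called are at adjusted p. The share at an unadjusted p under 0.05 is not given, so counts at that threshold, here and for the lists below, have no background to be set against. The count called lower was 1 at 6 h, where 0.579% of tested probe sets were called lower, 2 at 12 h (1.56%), 1 at 24 h (2.01%), 2 at 48 h (15.6%) and 2 at 72 h (17.6%). AT4G08410 was the gene called at 6 h and at every later time, and AT1G23720 was the other at 12, 48 and 72 h. Under the alternatives tried, the 12 h call of AT1G23720 was lost in 6 of 12, its 48 h call was lost without 48 h replicate 1, and AT1G26250 was called at 12 and 24 h without standard replicate 1 and at 72 h without standard replicate 2. AT1G26250 was also called at 12 h with the replicate block. None of the 4 was called at 24 h against 3 h, where 2% of tested probe sets were, or at 72 h against 48 h, where 0.0147% were, and 2 were at an unadjusted p under 0.05 in each of these comparisons. AT1G26250 was called at 24 h against 3 h without 3 h replicate 1 (−1.76), and at 72 h against 48 h with the 4 later arrays alone (1.13).

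The median log2 fold change of the 4 genes was −0.45 at 3 h, −0.20 at 6 h, −1.14 at 12 h, −0.89 at 24 h, −0.72 at 48 h and −0.77 at 72 h. Over all tested probe sets it was 0.01 at 3 h, 0.02 at 6 h, 0.03 at 12 h, 0.02 at 24 h, 0.06 at 48 h and 0.07 at 72 h. With 4 genes that go different ways, this median stands between AT4G08410 and AT2G47540 and describes no single one of them. The 4 members did not all vary together, and AT2G47540 stood apart from the others over the earlier arrays. Across the 10 arrays of standard medium to 24 h, Pearson's r of log2 signals was 0.70 between AT4G08410 and AT1G23720, 0.60 between AT1G26250 and AT1G23720, and 0.43 between AT1G26250 and AT4G08410. That of AT2G47540 with each of the other three lay between −0.09 and 0.13. Without the 2 arrays farthest from the median of the first-named gene, r was 0.76 for AT1G23720 and AT4G08410 but 0.06 for AT1G26250 and AT4G08410. With AT2G47540 it was then 0.49 for AT1G26250, −0.37 for AT1G23720 and 0.13 for AT4G08410. These are descriptions over arrays that share their groups.

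As relatives, 16 other classical extensin genes were listed, and all counts of relatives below are of lower calls, since no gene of the lists was called higher at any time. All lists were chosen with earlier results of these data known, and their adjusted p does not allow for that. Of all tested probe sets 0% were called lower at 3 h, 0.579% at 6 h, 1.56% at 12 h and 2.01% at 24 h. At 48 h the share was 15.6%, and at 72 h 17.6%. Of the 16, 8 had a probe set paired with 1 gene and 5 were tested. None of these was called at 3 or 6 h (limma, with 2 at an unadjusted p under 0.05 at each time), 4 fell at 12 h, 1 at 24 h, 3 at 48 h and 4 at 72 h. Their median log2 fold change was −1.25 at 12 h, −0.71 at 24 h and −1.85 at 72 h. The tested ones were AT5G06630, AT3G54590 (HRGP1), AT3G54580, AT2G43150 and AT3G28550. Those left untested for low signal include AT1G26240, the gene beside AT1G26250, with a mean signal of 29.3.

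AT5G06630, an extensin gene whose next gene AT5G06640 is another, had the highest r of them with AT4G08410. It was 0.956 over all 14 arrays and 0.87 over the 10 of standard medium to 24 h. Without the 2 standard arrays it was 0.48, under the 0.56 of AT2G43150. The probe sets of AT4G08410 and AT5G06630 both carry the suffix for probes that may match other sequences. Signals of AT5G06630 were 1179 and 1544 on standard medium, 716 and 812 at 3 h, 816 and 527 at 6 h, 469.6 and 629 at 12 h, 664 and 535 at 24 h, 236 and 459 at 48 h, and 114 and 246 at 72 h. Each array without iron was under both standard arrays. The log2 fold change of AT5G06630 was −0.81 at 3 h, −1.02 at 6 h, −1.29 at 12 h, −1.16 at 24 h, −1.98 at 48 h and −2.89 at 72 h, each ± 0.30 (SE, n = 2 against 2). By limma over all tested probe sets it fell at 12 h (adjusted p = 0.0236), 24 h (adjusted p = 0.0358), 48 h (adjusted p = 4.35e-05) and 72 h (adjusted p = 2.93e-07). The calls at 12 and 24 h were lost whenever 1 of the arrays compared was left out and with no filter, and that at 24 h also with a pseudocount of 1, with adjusted p up to 0.167 at 12 h and 0.279 at 24 h, while those at 48 and 72 h held under all 11 alternatives.

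HRGP1 (AT3G54590) and AT3G54580, neighbouring extensin genes, fell at 12, 48 and 72 h. HRGP1 averaged 1057 ± 56.5 at 12 h, 771 ± 178 at 48 h and 579 ± 169 at 72 h, against 2732 ± 418 on standard medium (SD, n = 2 each). Its log2 fold change was −1.35 ± 0.26 at 12 h (limma adjusted p = 0.00486), −0.75 ± 0.26 at 24 h, which was not called, and −2.23 ± 0.26 at 72 h (limma adjusted p = 1.12e-06). AT3G54580 stood at 232 ± 75.8 at 12 h and 136 ± 8.85 at 72 h, against 532 ± 73.0 on standard medium (SD, n = 2 each). On the log2 scale AT3G54580 was at −1.17 ± 0.26 at 12 h (limma adjusted p = 0.0168), −0.54 ± 0.26 at 24 h, not called, and −1.85 ± 0.26 at 72 h (limma adjusted p = 1.42e-05). The 12 h call was lost for HRGP1 without standard replicate 1 or 12 h replicate 2, and for AT3G54580 without standard replicate 1 or 12 h replicate 1, with adjusted p up to 0.0756 for HRGP1 and 0.172 for AT3G54580.

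AT2G43150, a further extensin gene, averaged 32.6 ± 2.61 at 12 h and 47.1 ± 11.7 at 72 h, against 105 ± 51.8 on standard medium (SD, n = 2 each). It fell by 1.25 at 12 h on the log2 scale (limma adjusted p = 0.0466) and by 0.88 at 72 h (limma adjusted p = 0.0425), and was at −0.49 at 48 h without a call. Its 12 h call was lost under 7 of 11 alternatives and its 72 h call under 6 of 10. AT3G28550 was not called at any time, with log2 fold changes from −0.72 at 72 h (limma adjusted p = 0.0693) to 0.31 at 24 h, each ± 0.30 (SE).

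**Figure D3:**
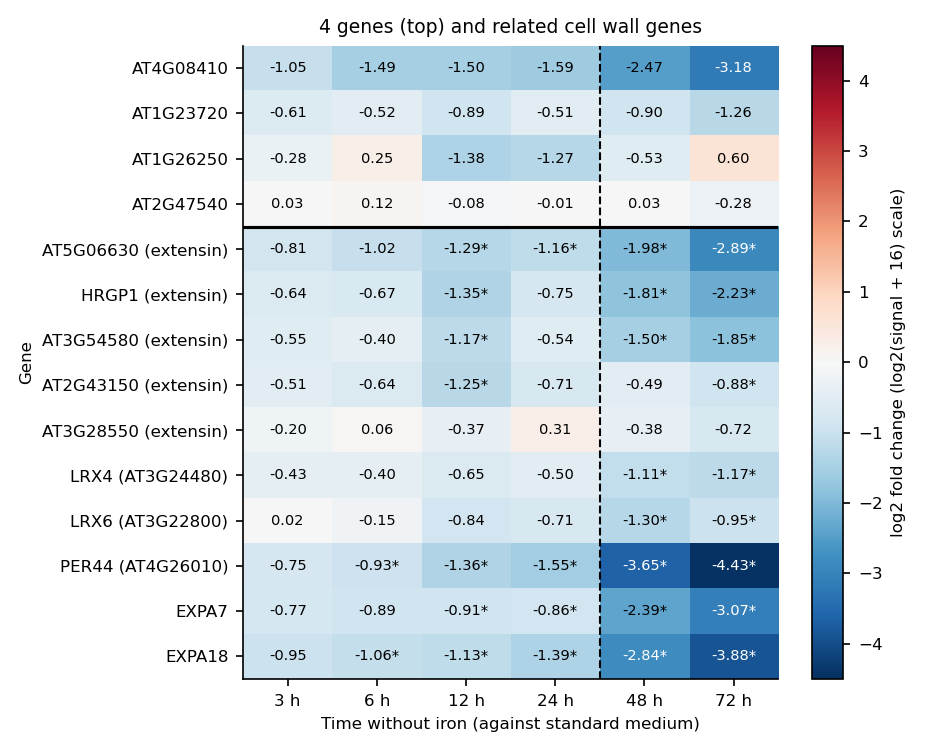
Log2 fold change against standard medium (colour and printed value, log2(signal + 16) scale) at 3 to 72 h without iron for the 4 genes above the solid line and for related extensin, wall and root hair genes under it. An asterisk marks a limma call at adjusted p under 0.05 for the genes under the line, and the dashed line separates the later array set. AT4G08410 and AT5G06630 are negative at each time, as are PER44, EXPA7 and EXPA18, while AT2G47540 stays between −0.28 and 0.12.

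Leucine-rich repeat extensins join an extensin domain to a domain that binds signalling peptides of the wall. Of 11 such genes 8 had a paired probe set and 2 were tested, LRX4 (AT3G24480) and LRX6 (AT3G22800). Neither was called up to 24 h (limma, with 2 at an unadjusted p under 0.05 at 12 h and 1 at 24 h), and both fell at 48 and 72 h. LRX6 averaged 127 ± 2.00 at 48 h and 166 ± 1.15 at 72 h, against 345 ± 115 on standard medium (SD, n = 2 each). LRX6 had a log2 fold change of −1.30 ± 0.24 at 48 h (limma adjusted p = 0.0003) and −0.95 ± 0.24 at 72 h (limma adjusted p = 0.00382), and that at 72 h lost its call without standard replicate 2. LRX4 was at −1.11 ± 0.29 at 48 h (limma adjusted p = 0.00566) and −1.17 ± 0.29 at 72 h (limma adjusted p = 0.0032), and lost each call when replicate 1 of that time was left out. The 14 listed proline-rich extensin-like receptor kinases had no probe set paired with 1 gene and were not analysed here.

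The family of AT2G47540, other Ole e 1 domain and proline-rich wall proteins, held 21 listed genes, 12 with a paired probe set and 3 tested. None was called up to 24 h (limma, with 2 at an unadjusted p under 0.05 at 6 h and 1 at 24 h), 2 fell at 48 h and 1 at 72 h. AT1G78040 fell by 0.80 at 48 h (limma adjusted p = 0.000442) and by 0.64 at 72 h (limma adjusted p = 0.00268) on the log2 scale, and both calls were lost under quantile normalization, at −0.20 and −0.08. AT5G10130 fell by 0.62 at 48 h (limma adjusted p = 0.0272), a call lost without any 1 of the 4 arrays compared. SAH7 (AT4G08685) was not called, with log2 fold changes from −0.19 at 48 h to 0.45 at 6 and 24 h. AT2G47530, the gene beside AT2G47540, had no paired probe set.

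Enzymes that modify extensins were followed as a list of 17 genes, 7 of them with a tested probe set. They include arabinosyltransferases and a serine galactosyltransferase, which build the sugar chains, and class III peroxidases, which can cross-link the tyrosines. None was called at 3 h (limma, with 1 at an unadjusted p under 0.05), and 1 fell at each of 6, 12 and 24 h. At each of 48 and 72 h 3 fell, where 15.6% and 17.6% of all tested probe sets were called lower. The peroxidase gene PER44 (AT4G26010, also PRX44) was the 1 that fell at 6 to 24 h. PER44 signals were 6262 and 5208 on standard medium, 3351 and 3409.7 at 3 h, 3109 and 2894 at 6 h, 2045 and 2396 at 12 h, 1434 and 2615 at 24 h, 451 and 427 at 48 h, and 261 and 238 at 72 h. No array without iron reached the standard arrays, and the 48 and 72 h arrays were under all others.

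Against standard medium PER44 had a log2 fold change of −0.75 at 3 h, −0.93 at 6 h (limma adjusted p = 0.0353), −1.36 at 12 h (limma adjusted p = 0.000609), −1.55 at 24 h (limma adjusted p = 7.46e-05), −3.65 at 48 h and −4.43 at 72 h (limma adjusted p = 3.85e-12), each ± 0.21 (SE, n = 2 against 2). Its 6 h call was lost when any 1 of the 4 arrays compared was left out, with no filter, and with the 10 arrays of standard medium to 24 h alone. The arabinosyltransferase ExAD (AT3G57630) fell by 0.65 at 48 h (limma adjusted p = 0.0211) and by 0.81 at 72 h (limma adjusted p = 0.00451). The serine galactosyltransferase SERGT1 (AT3G01720) fell by 0.83 at 48 h (limma adjusted p = 0.000905) and by 0.71 at 72 h (limma adjusted p = 0.00286). The arabinosyltransferases XEG113 and HPAT3 and the peroxidases PER9 and PER40 were not called at any time. Of the ExAD and SERGT1 calls only that of ExAD at 48 h was lost on leaving out an array, which happened for each of the 4 arrays compared.

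Root hair genes were followed because several extensins are known from hair cells. Of 18 listed genes 3 had a paired probe set and 2 were tested, the alpha-expansins EXPA7 and EXPA18, wall-loosening proteins of hair cells. Neither was called at 3 h (limma, with both at an unadjusted p under 0.05), 1 fell at 6 h and both fell from 12 h on. EXPA18 averaged 806 ± 25.8 at 6 h, 647 ± 149 at 24 h and 102.5 ± 29.7 at 72 h, against 1717 ± 352 on standard medium (SD, n = 2 each). The log2 fold change of EXPA18 was −0.95 at 3 h, −1.06 at 6 h (limma adjusted p = 0.0144), −1.13 at 12 h (limma adjusted p = 0.00359), −1.39 at 24 h (limma adjusted p = 0.00033), −2.84 at 48 h and −3.88 at 72 h (limma adjusted p = 2.70e-11), each ± 0.21. That of EXPA7 was −0.91 at 12 h (limma adjusted p = 0.0255), −0.86 at 24 h (limma adjusted p = 0.0291) and −3.07 at 72 h (limma adjusted p = 1.09e-09), each ± 0.22. The EXPA7 calls at 12 and 24 h were lost without standard replicate 1 and without either replicate of that time, that at 24 h also with no filter and with the 10 arrays of standard medium to 24 h alone, the EXPA18 calls at 6 and 12 h without standard replicate 1, and that at 6 h also without either 6 h array.

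In RNA from whole roots, fewer cells of a type and less RNA per cell cannot be told apart. Among the tested markers of other cells, only those of green tissue were called, on the later arrays. Of 3 green tissue markers 2 were tested, and both fell at 48 and 72 h: RCA, Rubisco activase, was at −2.70 ± 0.28 at 72 h (limma adjusted p = 2.82e-07) and LHCB4.1, a light-harvesting protein, at −2.17 ± 0.23 (limma adjusted p = 2.76e-07). Up to 24 h their log2 fold changes were 0.06 to 0.50 and not called. SGN3, a marker of endodermis, and MCM7, a marker of dividing cells, had no call at any time. The pollen markers PEX2 and AT5G45880 were at mean signals of 15.7 and 8.01, under the filter. Listed markers of stele and of non-hair epidermis had no probe set paired with 1 gene. The part of cell composition in the extensin values was not tested.

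Genes most like each member in course were named by Pearson's r of log2(signal + 16) with each of 7352 other tested probe sets paired with 1 gene, over the 10 arrays of standard medium to 24 h and over all 14 arrays. For AT4G08410 the top genes over 10 arrays were AT4G30320, of the CAP and pathogenesis-related 1 superfamily, at 0.96, AT1G19450, which resembles sugar transporters, at 0.94, and AT2G31730 at 0.93. Leaving out the 2 arrays farthest from the median of AT4G08410, which are the standard arrays, r was 0.94 with AT4G30320, 0.90 with AT1G19450 and 0.76 with AT2G31730. Over all 14 arrays, which fall into 2 sets, the top genes were AT4G30320 (0.974), AT5G06630 (0.956) and EXPA18 (0.955). Over the 10 earlier arrays r of AT4G08410 with EXPA18 was 0.91, and 0.44 without the 2 standard arrays, so that likeness rested largely on the difference between standard medium and the rest. The same held for AT4G08410 with AT5G06630, at 0.87 and 0.48, and with PER44, at 0.84 and 0.44.

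AT1G23720 was most like AT3G58140 (r = 0.93), AT3G60520 (0.93) and AT5G10960 (0.91) over 10 arrays. Over all 14 its nearest genes were the extensins AT5G06630 (0.91) and HRGP1 (0.89), then AT3G47380 (0.89), of the invertase and pectin methylesterase inhibitor family. The probe sets of AT1G23720, AT5G06630 and HRGP1 all carry the suffix for probes that may match other sequences.

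AT1G26250 was most like LRX6 (r = 0.93), AT5G23840 (0.93) and AT2G42290 (0.93) over 10 arrays, and r was 0.88 with LRX6 without the 2 farthest arrays. LRX6 read 263 and 426 on standard medium, 275 and 419 at 3 h, 311 and 293 at 6 h, 157 and 205 at 12 h, and 223 and 176 at 24 h, so the same replicate was the higher one in both genes in each of these groups but 6 h. At 48 and 72 h LRX6 read 125 and 128, and 166 and 165, below both standard arrays, where AT1G26250 was not. Over all 14 arrays LRX6 was not among its nearest genes, which were AT3G12930 (0.80), AT4G38930 (0.79) and AT4G00520 (0.78). AT2G47540, with little movement to follow, was most like AT5G17510 (0.93), RTH (0.90) and VPS24.1 (0.89) over 10 arrays, which became 0.79, 0.65 and 0.59 without the 2 farthest arrays, and like AT5G10560 (0.76), AT1G52540 (0.76) and AT3G02740 (0.76) over 14. These are the 3 highest r of 7352 for each gene and set of arrays, and describe these arrays alone.

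**Figure D4:**
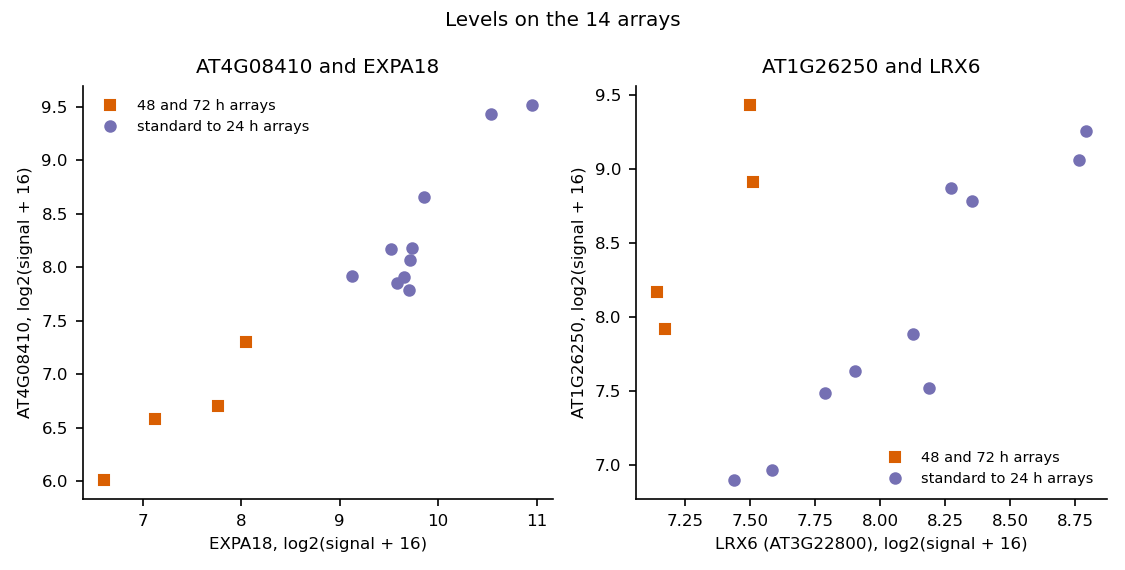
Log2(signal + 16) of AT4G08410 against EXPA18 (left) and of AT1G26250 against LRX6 (right), 1 point for each of the 14 arrays, with squares for the 48 and 72 h arrays and circles for the 10 earlier arrays. The points of AT4G08410 and EXPA18 run along 1 line with the 2 standard arrays at its top, while the 4 later arrays of AT1G26250 lie apart from the line of the earlier ones.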

How the data were processed

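RNA of 14 samples was measured on 1-colour Affymetrix arrays, and the sample labels gave the group and replicate number of each. The authors used MAS5, per the submitters' processing notes, to obtain the deposited linear intensities, 1 per probe set. The MAS5 version is not given in the sources used here. The deposited scaling was kept. The mean without the lowest and highest 2% was 250.02 to 250.03, and the median signal 84.5 to 94.9. All columns were matched to samples, with 0 left over. Genes were named through the platform's probe table and RefSeq TAIR10.1 locus names, which pair 13513 of 22810 probe sets with 1 gene, 503 with several and 8794 with none.

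The 64 control probe sets were left out. After a log2(signal + 16) transformation, probe sets in the lowest 40% by mean (under 49.6 in signal) were removed. The 13648 others were fitted in limma 3.58.1 (R 4.3.3) with 1 mean per group, all 14 arrays, 7 residual degrees of freedom and a trended prior. Benjamini-Hochberg adjustment ran within each of 8 comparisons, and adjusted p under 0.05 is a call. The fit was tested on simulated data. A listed marker is not reported here. The number of arrays limits the precision, and p-values reflect the spread between pools of roots.

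The members and the gene lists were chosen with earlier results of these data known. Calls of members are therefore counted only as a description, and the adjusted p of list genes does not allow for that choice. All 4 members and all tested extensins are named, from each other list up to 6 called genes, and for each member the 3 probe sets with the highest r over 10 and over 14 arrays. Some genes not called are also named, to complete small lists, after their values were seen. Alternatives were quantile normalization, median centring (added after seeing the data), a pseudocount of 1 or 64, omitting the filter or raising it to the 60th percentile, the replicate number as a block, each array set alone, and leaving out each array in turn.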

Additional observations from a re-analysis of the deposited data

Results flagged for a closer look

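Among the genes followed, 7 had both arrays above both standard arrays at 1 time and both below at another, and none is a member. Each of these switches lies between the array sets. The share of all tested probe sets with such a switch was not counted, so the 7 cannot be called unusual. At a single time, both arrays were below both standard arrays for 17.3% of tested probe sets at 12 h, 20.5% at 24 h and 31.8% at 72 h. The difference between the times was not tested for any of them. RCA, Rubisco activase, lay above at 3 and 6 h and below at 48 and 72 h, with log2 fold changes 3.16 apart at most. LHCB4.1 lay above at 3 to 24 h and below at 48 and 72 h, 2.49 apart. AT5G10130, of the Ole e 1 family, lay above at 3, 6 and 24 h and below at 48 and 72 h, 1.22 apart. The peroxidase PER40 (AT4G16270) lay above at 3, 6 and 24 h and below at 72 h, 1.10 apart. The arabinosyltransferase ExAD (AT3G57630) lay above at 12 h and below at 48 and 72 h, 1.07 apart. The peroxidase PER9 (AT1G44970) lay above at 48 and 72 h and below at 3, 12 and 24 h, 0.80 apart, and the endodermal SGN3 (AT4G20140) did the same, 0.67 apart.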

How the results depend on the processing

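No called value of the 4 genes changed sign under any alternative. For AT4G08410 the calls at 6 to 72 h held under all alternatives, 12 at 6, 12 and 24 h and 11 at 48 and 72 h, with ranges of −1.57 to −1.33 at 6 h, −1.69 to −1.30 at 12 h, −1.65 to −1.42 at 24 h, −2.77 to −2.10 at 48 h and −3.46 to −2.58 at 72 h, and it was not called at 3 h under any (−1.30 to −0.81). These calls use the values that took part in the choice of the gene, and every alternative reuses the same arrays. They are a description and no test of the gene. The count of probe sets called at 3 h was 3, and 1 under median centring, no filter, quantile normalization or the 10 earlier arrays alone. At 6 h it was 129, but 78 with no filter and 70 with the 10 arrays, and at 12 h 359, but 230 with the 10 arrays. At 72 h against 48 h it was 2, but 61 with those 4 arrays alone, 16 with a pseudocount of 1, 9 with a pseudocount of 64, 7 with quantile normalization and 7 with the replicate block. With 1 array left out the counts were 1 to 23 at 3 h, 67 to 112 at 6 h, 214 to 301 at 12 h, 252 to 455 at 24 h, 2727 to 3554 at 48 h, 142 to 227 at 24 h against 3 h (273 in full) and 0 to 2 at 72 h against 48 h, where the lone array of a group is assumed to vary like the others. Under median centring the calls were 1646 higher and 2587 lower at 48 h, against 2165 and 2125, and 1888 higher and 2865 lower at 72 h, against 2503 and 2401. Of the listed relatives 2 were called at 6 h, but 1 with no filter or with the 10 arrays, and 0 to 2 with 1 array left out. The count was 7 at 12 h (2 to 6 with 1 array left out) and 4 at 24 h (2 to 3). At 24 h against 3 h it was 0, but 1 with the 60th percentile filter, a pseudocount of 64, the replicate block or median centring, and 0 to 1 with 1 array left out. At 72 h against 48 h it was 0, but 2 with the 4 arrays alone and 1 with a pseudocount of 1. The cause of these differences was not tested. No consistent pairing of samples by replicate number was seen. Over 21 pairs of groups, the correlation of the replicate differences was −0.14 to 0.27 with a median of 0.05. It was above 0.1 in 4 and below 0 in 5. With the replicate block AT1G26250 was called at 12 h.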
